A study of Gasterosteus aculeatus with 17 samples.

Results

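Gills of 17 three-spined sticklebacks (Gasterosteus aculeatus) were compared between 9 fish moved to the other water and 8 fish kept in their own, with each population set against its own controls. All 17 fish of the series enter, and the members were assigned by their labels. The 9 moved fish were 5 marine fish held in fresh water for 4 days and 4 freshwater fish held in marine water for 4 days. The 8 kept fish were 4 marine fish in marine water and 4 freshwater fish in fresh water, which per the labels were also held captive. All were wild males in breeding dress, taken from a lake (freshwater population) or a sea coast (marine population), and each library is 1 fish. Messenger RNA with a poly(A) tail was sequenced from the gills, and reads were counted per gene. The labels' protocol speaks of 4 fish in each group, and 5 moved marine libraries are present.

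The gill is the main site at which a bony fish exchanges salt with the water. Its ionocytes, mitochondria-rich cells of the epithelium, secrete salt in the sea and take it up in fresh water, so a marine fish moved to fresh water and a freshwater fish moved to sea water face opposite tasks. A transfer is also a disturbance of its own, and handling and abrupt salinity change are known to raise the stress hormone cortisol in fish. The contrast described here is the mean of both moves (freshwater moved minus kept, and marine moved minus kept), which asks for a change that occurs in either direction of transfer. A response to the water itself has opposite signs in the populations and cancels in this mean as far as it is of equal size. Moving and being in foreign water cannot be told apart, because every moved fish was in foreign water. The sample records used here give no holding time for kept fish, so whether it matched that of moved fish is not known.

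The table gives genes as IDs only. None of the 22456 IDs matched the 52177 genes of the reference table, so lists of ion transport, stress, immune and cell type genes could not be applied, and whether gill or other cell type markers were present was not tested. In whole tissue, fewer cells of a type and less RNA per cell cannot be told apart. Total counts lay between 23736661 and 27949237 in moved and between 23609866 and 28960967 in kept freshwater fish. In marine fish they lay between 6932688 and 16108405 in moved and between 17993109 and 19450343 in kept fish, so depth moved with the transfer in marine fish. Of the genes tested, 27.5% had counts that share a divisor over 1 in all fish, and the origin of this is not given in the sources used here. Levels below are CPM, read counts as a share of the TMM-scaled library total, not corrected for gene length, and changes are log2 fold changes, moved over kept.

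Only 2 of 18238 genes tested, both higher in moved fish, passed edgeR's quasi-likelihood test of the mean contrast (Benjamini-Hochberg adjusted p below 0.05), which is 0.0110% of genes. Without adjustment, p was below 0.05 for 3140 genes (17.2%), 1351 higher and 1789 lower in moved fish. That split depended on scaling, with 1706 higher and 1257 lower after upper-quartile scaling. With library size as a covariate the number was 2031, 908 higher and 1123 lower. The median change of all genes was 0.01 log2 units and the median standard error 0.16. For 81.1% of genes the 95% interval of the mean change lay within 2-fold in either direction, and for 54.5% it lay within 1.5-fold. For the remaining genes the interval reaches or lies beyond a mean change of that size, and a mean change can come from 1 population alone.

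The first of the 2 genes, ENSGACG00000000730, passed within freshwater fish and not within marine fish. It was at 5.79, 5.89, 6.41 and 7.53 CPM in moved freshwater fish, against 0.0698, 0.0756, 0.169 and 0.330 CPM in kept freshwater fish. In marine fish it was at 3.42, 4.18, 4.42, 4.70 and 7.49 CPM in moved fish, against 3.55, 3.70, 4.71 and 6.19 CPM in kept fish. Kept freshwater fish were thus the only low group, with 2 to 8 counts per library, and moved and kept marine fish overlapped. The change was 5.31 (SE 0.37, edgeR adjusted p = 5.8e-07) in freshwater fish and 0.08 (SE 0.25, edgeR adjusted p = 0.881) in marine fish, and the difference between them was 5.22 (SE 0.46, edgeR adjusted p = 2.7e-05). Its mean change of 2.69 (SE 0.23, edgeR adjusted p = 1.9e-05) lies between these and is the change of neither population. It passed in 30 of 31 alternative analyses, the exception being the model that gives both populations 1 common effect (log2 change 1.83, edgeR adjusted p = 0.249).

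The second, ENSGACG00000017542, was higher in moved fish of both populations. It was at 5.42, 5.44, 5.79 and 6.22 CPM in moved freshwater fish, against 2.40, 2.99, 3.21 and 3.22 CPM in kept freshwater fish. In marine fish it was at 3.02, 3.08, 3.88, 4.24 and 5.52 CPM in moved fish, against 1.77, 2.01, 2.18 and 2.51 CPM in kept fish. Moved and kept fish did not overlap in either population. The change was 0.95 (SE 0.19, edgeR adjusted p = 0.0208) in freshwater fish and 0.88 (SE 0.21, edgeR adjusted p = 0.036) in marine fish, and their difference of 0.07 (SE 0.28) was within its error. The mean change was 0.92 (SE 0.14, edgeR adjusted p = 0.0461). It kept its direction in all 31 alternatives, at 0.80 to 0.97, but passed in 10 of them, with adjusted p from 5.3e-06 (DESeq2) to 0.36 (library size as covariate). With the fish number as a replicate block it did not pass (edgeR adjusted p = 0.204). It rests on 28 to 50 counts per library in moved marine fish.

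No gene was lower in moved fish at an adjusted p below 0.05. The lower genes of smallest p whose moved and kept fish did not overlap in either population were ENSGACG00000005382 and ENSGACG00000015100, and neither passed. ENSGACG00000005382 was at 69.3, 71.4, 79.9 and 88.5 CPM in moved freshwater fish, against 94.6, 109, 112 and 132 CPM in kept freshwater fish. In marine fish it was at 47.4, 56.1, 59.6, 65.8 and 67.2 CPM in moved fish, against 73.8, 83.7, 85.0 and 90.5 CPM in kept fish. All moved fish of a population were below all its kept fish, at a mean change of -0.51 (SE 0.09, edgeR adjusted p = 0.19). It passed in 3 of 31 alternatives (DESeq2, limma voom and without moved marine fish 1).

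ENSGACG00000015100 was at 0.141, 0.329, 0.484 and 0.526 CPM in moved freshwater fish, against 0.558, 0.825, 1.36 and 3.37 CPM in kept freshwater fish. Moved marine fish had 0.441, 0.515, 1.08, 1.98 and 2.12 CPM, against 2.84, 3.67, 4.82 and 6.32 CPM in kept marine fish. The groups did not overlap, but in freshwater fish the nearest moved and kept values were close. Moved fish 1 and kept fish 2 had 16 counts each, so their order rests on the scaling of the libraries. The mean change was -1.99 (SE 0.39, edgeR adjusted p = 0.198) and rests on 4 to 18 counts per library in moved fish, counts that share the divisor 2.

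**Figure D1:**
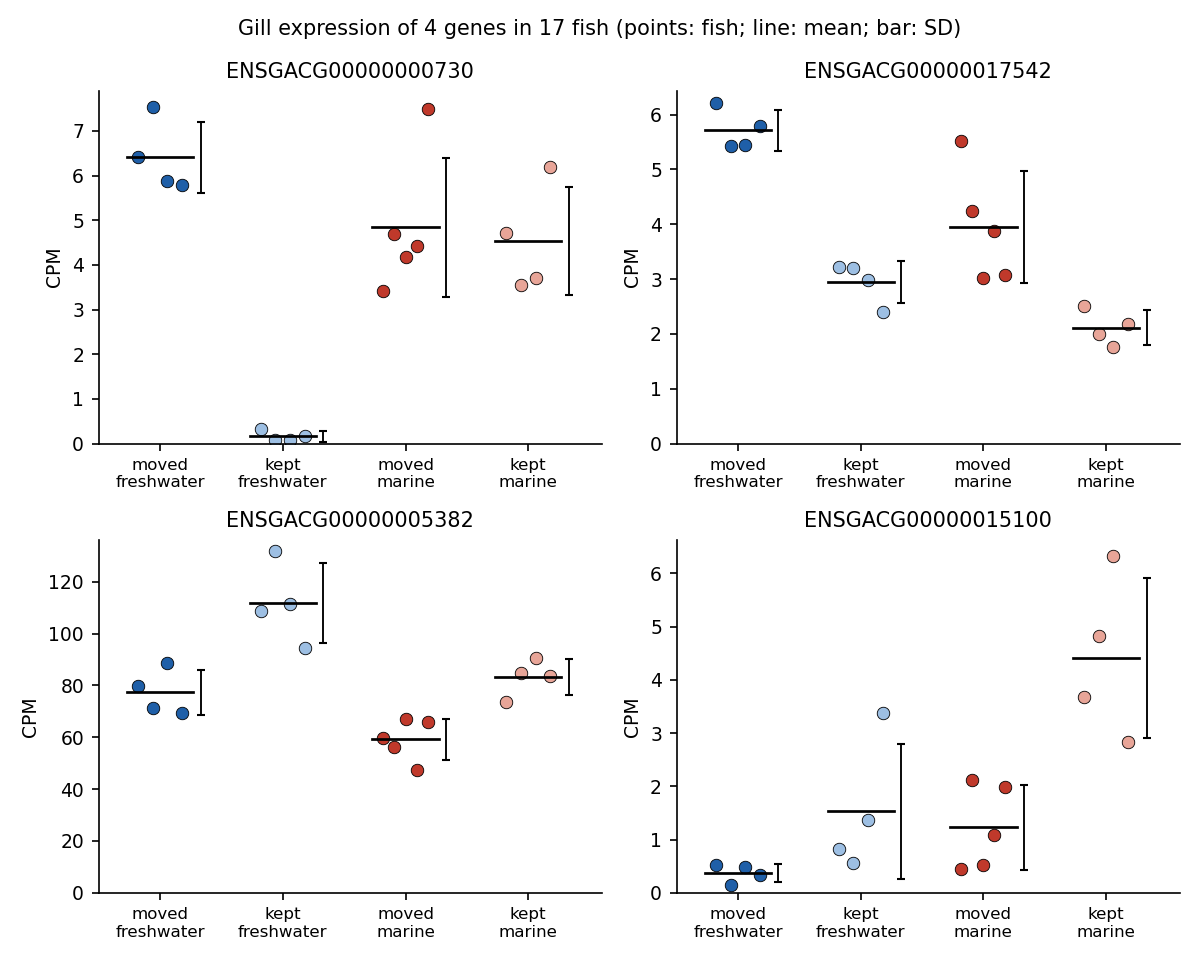
CPM of 4 genes in each of 17 fish, by group (points are fish, horizontal lines group means, bars SD over 4 or 5 fish). ENSGACG00000000730 is low in kept freshwater fish alone, at up to 0.330 CPM, while in the other 3 genes moved and kept fish do not overlap in either population. ENSGACG00000005382 and ENSGACG00000015100 were chosen for not overlapping, and neither passed (edgeR adjusted p = 0.19 and 0.198). For ENSGACG00000015100 the nearest moved and kept freshwater fish had 16 counts each.

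A stricter reading asks that each population show the change by itself. The test was the larger of the 2 within-population p-values, for genes changed in the same direction, with Benjamini-Hochberg adjustment over all 18238 genes. By it 0 genes passed edgeR, nor did any under DESeq2 or limma voom, and the smallest adjusted p in edgeR was 1. Taking the larger p-value makes the test severe, so it cannot show that no gene changed in both populations. Adjusted within each population, ENSGACG00000017542 passed in freshwater and in marine fish (edgeR adjusted p = 0.0208 and 0.036). In all, edgeR called 45 of 18238 genes within both populations, whatever the direction. Within freshwater fish 137 genes passed, so the 45 are among the 200 genes of smallest p there. Of these 200, 4 changed in the same direction in marine fish at an unadjusted edgeR p below 0.05. At most 4 of the 45, ENSGACG00000017542 included, thus changed in the same direction. Of these 45, 5 had an unadjusted edgeR p below 0.05 in the mean contrast. DESeq2 called 3 of its 241 genes of the mean contrast within both populations. Unadjusted p-values below 0.05 in both populations with the same direction were found for 102 genes (0.559%), 34 higher and 68 lower in moved fish. With opposite directions they were found for 360 genes (1.97%), of which 253 were lower in moved freshwater and higher in moved marine fish, and 107 the reverse. In terms of the water, the 253 genes were higher in fresh than in marine water in both populations, and the 107 were lower. The number with the same direction was sensitive to single fish, at 49, 64 and 67 without kept freshwater fish 5, moved freshwater fish 2 and 4. It was 249, 212, 166 and 210 without moved freshwater fish 3, kept freshwater fish 4, moved marine fish 1 and kept marine fish 5. The number with opposite directions ranged from 296 to 427 without single fish. With limma voom, which was run with a quality weight per library, the numbers were 369 and 416. The surplus of opposite changes was thus small by that method. With library size as a covariate the numbers were 62 and 263. After upper-quartile scaling 50 of 86 genes with the same direction were higher in moved fish.

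Large changes gave the same order. Of 18238 genes tested, 1443 changed over 2-fold in marine fish (1156 of them higher in moved fish). In freshwater fish 633 did (259 of them higher). The marine surplus of higher genes was absent by p-value: edgeR's unadjusted p was below 0.05 for 1979 higher and 2110 lower genes. Past the adjusted threshold there were 262 higher and 262 lower genes in marine fish. Moved marine libraries were smaller than kept ones, and the part of depth in the 2-fold counts was not tested. Changes over 2-fold in both populations had the same direction for 52 genes (32 higher and 20 lower in moved fish) and opposite directions for 155. Over all genes 53.8% had the same direction in both populations, so opposite changes outnumbered equal ones among large changes and not among all. The numbers of 2-fold changes and of shared directions are counts of estimates, without a test.

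**Figure D2:**
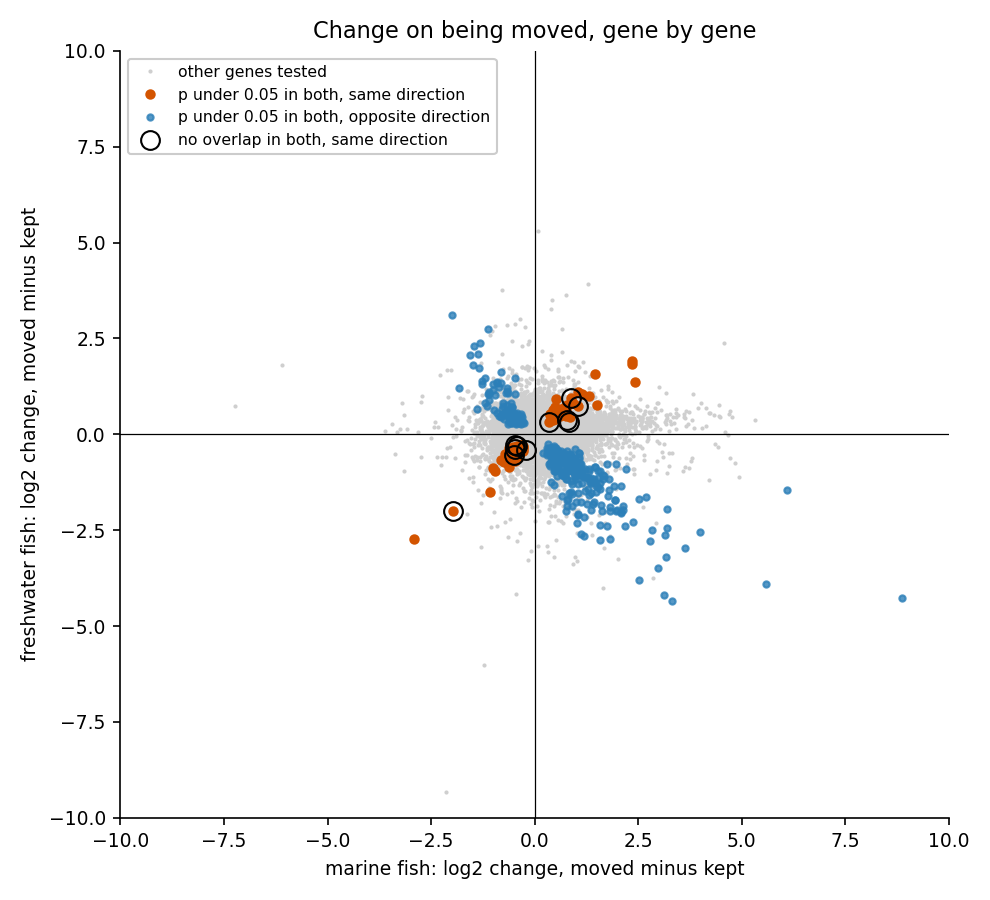
Log2 change on being moved in freshwater fish (vertical) against marine fish (horizontal) for 18238 genes, each point a gene. Colors mark genes with an unadjusted edgeR p below 0.05 in both populations, 360 with opposite changes (blue) and 102 with the same direction (orange). Rings mark the 11 genes changed in the same direction whose moved and kept fish do not overlap in either population.

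In TMM-scaled CPM, moved and kept fish did not overlap for 1443 genes in freshwater fish (7.91%) and for 1011 in marine fish (5.54%). They did not overlap in both populations for 11 genes with the same direction (0.0603%), 5 higher and 6 lower in moved fish, and for 79 genes with opposite directions (0.433%). Under other scalings and at equal depth the same-direction number was 12 to 16, and it was 47 without moved marine fish 1 and 2, where fewer fish have to be separated. Mean changes of the 11 genes lay between -1.99 and 0.92, and most were smaller than 0.6 log2 units in size. All but ENSGACG00000017542 missed the adjusted threshold in edgeR.

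Among those of the 11 genes with a group mean of at least 5 CPM, and apart from the genes above, 2 higher and 2 lower genes are described, those with the largest smaller-of-2 change in each direction. ENSGACG00000011137 was at 28.7, 29.5, 31.2 and 31.5 CPM in moved freshwater fish, against 20.8, 22.4, 24.7 and 25.7 CPM in kept freshwater fish. Marine fish had 31.6, 32.1, 35.2, 35.7 and 53.5 CPM in moved fish, against 14.3, 19.6, 25.9 and 28.0 CPM in kept fish. Moved fish were higher throughout, and moved marine fish 2 was far above the others. The change was 0.37 (SE 0.19) in freshwater and 0.77 (SE 0.19) in marine fish. Both SEs rest on 1 spread shared by all groups, whereas the SD was 1.35 CPM in moved freshwater and 9.06 CPM in moved marine fish. ENSGACG00000007347 averaged 16.6 ± 1.72 CPM in moved and 13.2 ± 1.36 CPM in kept freshwater fish (SD, n = 4 each). Its level averaged 13.8 ± 0.737 CPM in moved (SD, n = 5) and 10.9 ± 1.08 CPM in kept marine fish (SD, n = 4). Its changes of 0.33 (SE 0.12) and 0.34 (SE 0.12) were nearly equal in freshwater and marine fish. ENSGACG00000004398 averaged 20.3 ± 1.73 CPM in moved and 26.4 ± 2.85 CPM in kept freshwater fish, and 22.7 ± 2.86 CPM in moved and 31.5 ± 4.25 CPM in kept marine fish. ENSGACG00000009840, the most abundant of the 11, averaged 135 ± 5.76 CPM in moved and 165 ± 19.7 CPM in kept freshwater fish, and 147 ± 19.1 CPM in moved and 197 ± 17.5 CPM in kept marine fish. Each was lower in moved fish, with mean changes of -0.42 (SE 0.09) and -0.36 (SE 0.08). For ENSGACG00000009840 the nearest freshwater values almost met, at 141.0 CPM in moved fish 3 and 141.3 CPM in kept fish 4. Its change in freshwater fish was -0.29 (SE 0.12, edgeR adjusted p = 0.40), and its counts share the divisor 2. All 4 genes described here had an edgeR adjusted p of 0.198 for the mean contrast and passed in 1 of 31 alternatives, DESeq2.

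The same fish tested for the difference between the moves (freshwater change minus marine change) gave 368 genes past edgeR's adjusted threshold, 2.02% of those tested, 109 higher and 259 lower. Divided by 2, this contrast has the standard error of the mean contrast by construction of the fit (median ratio 1). Undivided, its median standard error was 0.33, against 0.16 for the mean contrast. In this design the difference between the moves equals marine minus fresh water, added over both populations. At an unadjusted p below 0.05 the order was the other way, with 3140 genes in the mean contrast and 2784 in the difference. Below 0.001 there were 79 and 367 genes, and below 1e-04 there were 6 and 148. The mean contrast thus had many genes at moderate p and few at small p. The 368 became 235 and 238 without moved freshwater fish 4 and 3, and 202 without kept freshwater fish 1. It became 561 without moved marine fish 5, 218 and 225 without kept marine fish 2 or 3, and 110 with library size as a covariate.

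**Figure D3:**
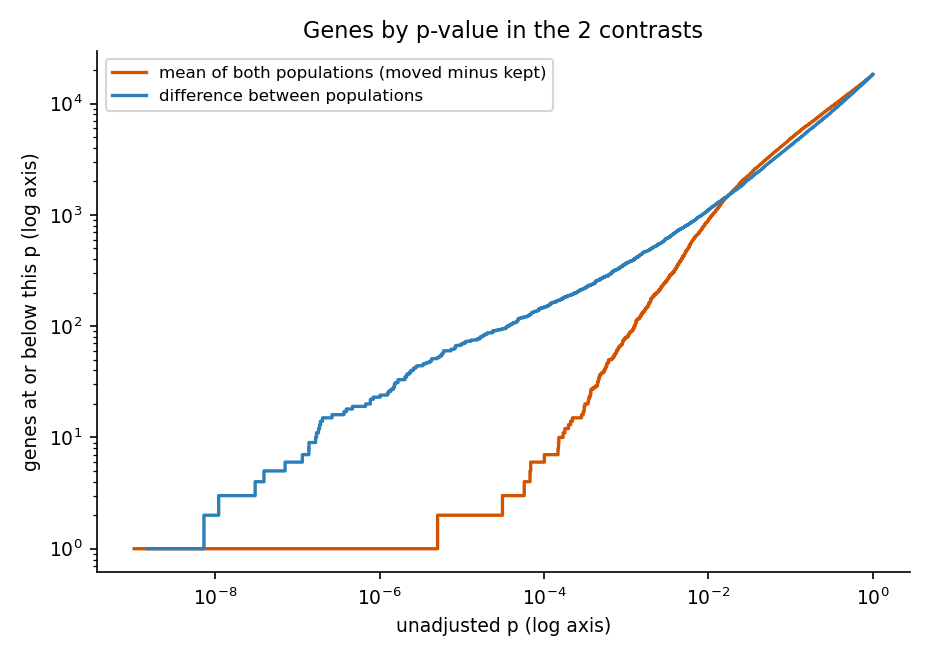
Number of genes (vertical, log axis) at or below each unadjusted p (horizontal, log axis) in edgeR's tests of the mean contrast and of the difference between the populations. The curves cross: the mean contrast has 3140 against 2784 genes below 0.05, but 6 against 148 below 1e-04.

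How many genes the mean contrast called, and which, depended on the method and on most of the single fish. DESeq2 called 241 genes (1.32%), 126 higher and 115 lower in moved fish, and limma voom called 8 (0.0439%), 5 higher and 3 lower. Of DESeq2's 241 genes, 39 were also called by DESeq2 within freshwater fish and not marine fish, 165 the reverse, 3 within both and 34 within neither. In 17 of the 241 the freshwater change was over 4 times the marine change, and in 88 the marine change was over 4 times the freshwater one. The populations had the same direction in 229 of the 241, a share that choosing by the mean raises. All 11 genes without overlap in both populations and with the same direction were among the 241. Choosing genes for that separation in these same fish makes this likely, so it is no separate evidence. Without moved marine fish 1, edgeR called 24 genes, 22 higher and 2 lower. Of these, 20 were called in marine fish and not in freshwater fish, and over the 24 the median absolute change was 0.49 in freshwater and 2.22 in marine fish. Without moved marine fish 1 and 2 together it called 26, and without moved freshwater fish 3 it called 3, of which 2 were lower in moved fish. Without kept freshwater fish 5 it called 2, but 1 higher and 1 lower, and ENSGACG00000017542 was not among them (edgeR adjusted p = 0.0884). It called 1 gene without any single one of moved freshwater fish 1, 2 and 4, kept freshwater fish 1, 2 and 4, moved marine fish 2 and 4, or kept marine fish 2, 3, 4 and 5.

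Genes with strong changes in one population were then read in the fish of the other, which share no library with it, only the estimate of spread of the joint fit. The 200 genes of smallest p in freshwater fish (35 higher and 165 lower on being moved) were read in marine fish, each signed by its direction in freshwater fish, as the median distance from kept marine fish. The medians were -0.714, -0.681, -0.727, -0.495 and -0.03 in moved marine fish 1 to 5, against 0.087, 0.005, -0.034 and -0.074 in kept marine fish 2 to 5, each kept fish set against the other kept ones. Moved marine fish 1 to 4 lay below all kept fish, and moved fish 5 lay among them. Of the 200 genes, 173 changed in marine fish in the direction opposite to that in freshwater fish and 27 in the same direction. At an unadjusted p below 0.05 these were 110 and 4. The median change was -0.54 over the list and 0.04 over all genes signed alike.

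In the other direction the pattern was smaller. The 200 genes of smallest p in marine fish (110 higher and 90 lower on being moved) had medians of -0.147, -0.148, -0.45 and -0.217 in moved freshwater fish 1 to 4, against 0.046, 0, 0.14 and -0.161 in kept freshwater fish 1, 2, 4 and 5. Moved fish 1 and 2 were above kept fish 5, so the groups overlapped. Of the genes 151 changed in the opposite and 49 in the same direction, and at an unadjusted p below 0.05 these were 65 and 0. The median change was -0.22 over the list and 0.03 over all genes. It depended on the length of the list, at -0.29 for 100 genes and -0.09 for 500, and for the list from freshwater fish at -0.82 and -0.25. The lists were chosen by p and are given without a test.

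**Figure D4:**
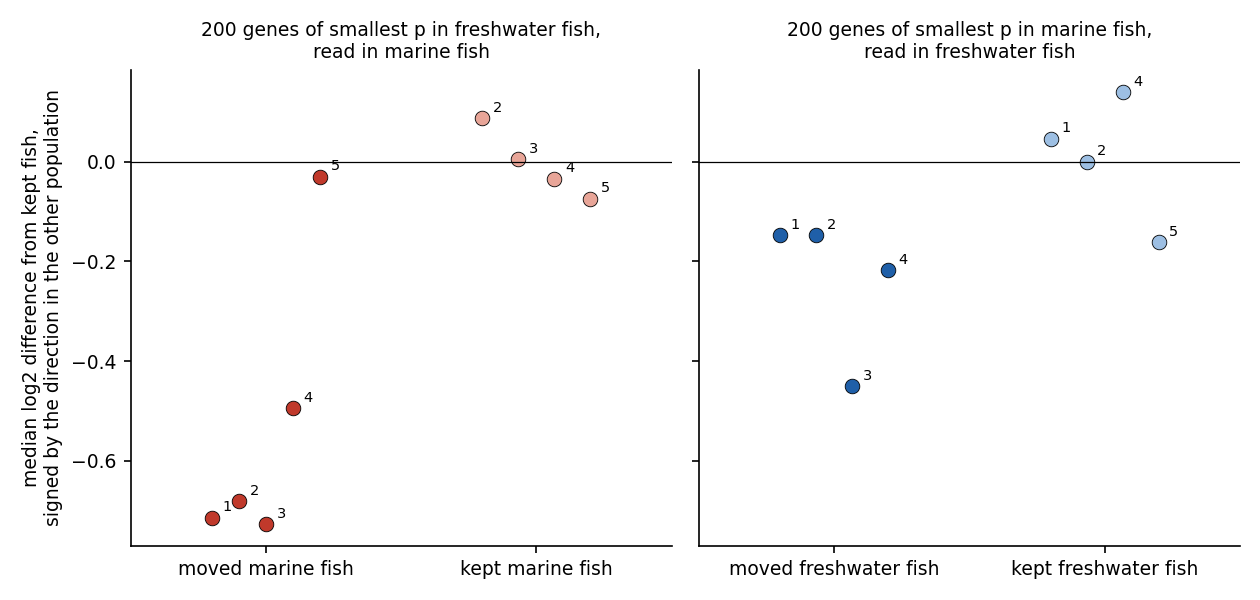
Median log2 difference from kept fish (vertical) of 200 genes of smallest p in one population, read in each fish of the other and signed by the first population's direction (points are fish, with their numbers). Values below 0 mean a change opposite to that of the first population's move, at -0.727 to -0.03 in moved marine and -0.45 to -0.147 in moved freshwater fish.

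Moved and kept fish were not set apart together by the main axes of variation. After subtraction of each population's mean, 0 of all 15 principal components separated moved from kept fish in both populations. In freshwater fish 3 components did, holding 12.9%, 9.9% and 5.3% of the variance, and in marine fish 0 did. On the first of these 3, moved freshwater fish scored 5.9 to 11.1 and kept freshwater fish -12.2 to -3.0, while moved marine fish spanned -86.2 to 25.0 and kept marine fish 8.8 to 41.6.

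Measures of the libraries themselves were compared with a two-sided exact permutation test within populations (8820 arrangements), adjusted over 4 measures. None passed for the mean of both moves. The 50 most abundant genes took 22.2 ± 0.385% of counts in moved and 24.2 ± 0.384% in kept freshwater fish (SD, n = 4 each), and 26.2 ± 1.76% in moved (n = 5) and 24.5 ± 1.18% in kept marine fish (n = 4). Moved and kept freshwater fish did not overlap (21.9 to 22.8% and 23.9 to 24.7%), whereas marine fish did (24.9 to 29.0% and 23.5 to 26.2%). The mean of the moves was -0.119 percentage points (exact permutation adjusted p = 0.87). The difference between the moves, freshwater change minus marine change, was -3.64 (exact permutation adjusted p = 0.011).

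The distance of a fish from its group was taken as the root mean square log2 difference from the mean of the other fish, over genes of at least 5 CPM on average. It was 0.362 ± 0.0473 log2 units in moved and 0.425 ± 0.0563 in kept freshwater fish (SD, n = 4 each). In marine fish it was 0.594 ± 0.115 in moved (n = 5) and 0.465 ± 0.0589 in kept fish (n = 4), led by moved marine fish 2 and 1 at 0.75 and 0.684. Moved marine fish 2 also had the smallest library, of 6932688 counts, whereas moved marine fish 5 lay at 0.511 with 9090093 counts. The part of depth in the distance was not tested. Each distance was computed within the real groups and kept when labels were permuted, so permutation p-values for the distance are not exact. The moves differed in distance between the populations by -0.191 (freshwater change minus marine change, permutation adjusted p = 0.027). Without kept marine fish 2 or 3 this was not past the threshold (permutation adjusted p = 0.0558 and 0.0534). The distances of the remaining fish were not recomputed, so the fish left out still entered them. In total counts the moves differed likewise, by 8347660 (exact permutation adjusted p = 0.027). This missed the threshold without the same fish (exact permutation adjusted p = 0.05 and 0.051). Genes detected with at least 3 counts at equal depth numbered 17864 ± 94.0 in moved and 17678 ± 69.8 in kept freshwater fish. They numbered 17966 ± 377 in moved and 17792 ± 437 in kept marine fish. Moved and kept freshwater fish did not overlap (17779 to 17998 and 17617 to 17772 genes), whereas marine fish did. The mean of both moves, 180 genes more in moved fish, did not pass (exact permutation adjusted p = 0.41). The part of library depth in the gene counts above was examined only by the alternatives named beside them.

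**Figure D5:**
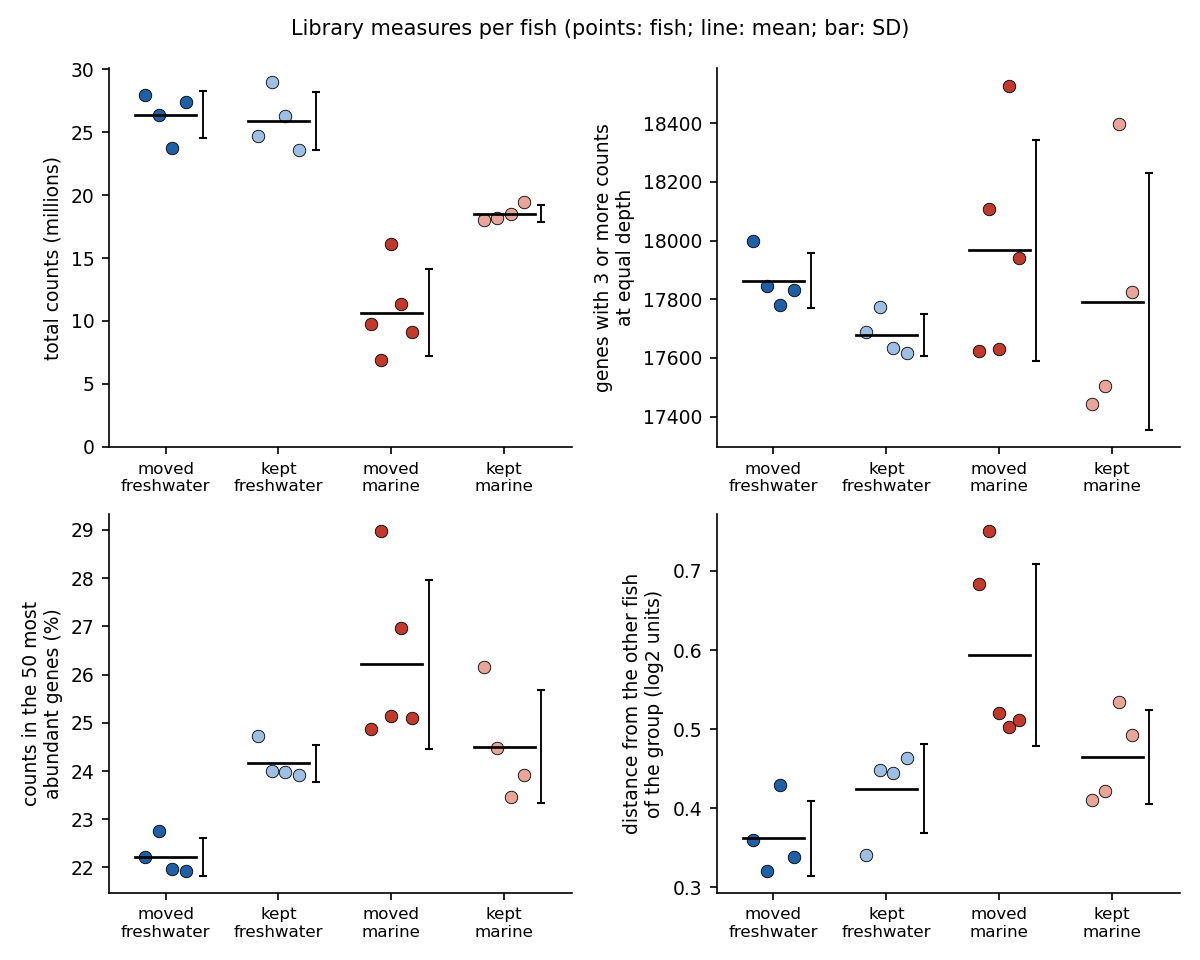
Total counts (top left), genes with 3 or more counts at equal depth, percent of counts in the 50 most abundant genes, and distance from the other fish of the group in log2 units, by group (points are fish, lines means, bars SD). The top-gene share is lower in moved than kept freshwater fish (22.2 and 24.2%) and higher in moved than kept marine fish (26.2 and 24.5%).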

How the data were processed

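The authors deposited whole-number read counts per gene, not normalized, for 17 gill libraries. Per the submitters' processing notes, the reads went through CASAVA 1.8.2 and TopHat2 2.1.0. The sources used here name no counting tool, genome build or annotation. There were 0 columns of no sample and 0 duplicated IDs. Genes were kept with filterByExpr by group (minimum count 10), scaled by TMM, and all 4 groups fitted with edgeR 4.0.16 (glmQLFit and glmQLFTest, 1 mean per group), with Benjamini-Hochberg adjustment over 18238 genes. The tested contrasts were the mean of the within-population differences and their difference. Standard errors are the log2 change over the square root of F. The fit gave each gene 1 spread shared by the 4 groups. Standard errors, p-values and gene counts within a population thus assume equal spread in all groups. Log2 CPM for components, distances and lists used a prior count of 2. The test scripts were first tested on simulated data. DESeq2 1.42.0 and limma 3.58.1 were alternatives, run in R 4.3.3. All limma voom results come from fits that weight each library by its quality. Permutations used Python 3.11.15 with numpy 2.4.6.

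Genes named first are the largest changes past the threshold (at least 5 CPM in a group mean), filled up to 2 per direction with the smallest p among genes without overlap in either population. Genes named second, 2 per direction and not repeating the first, had the largest smaller-of-2 change among genes without overlap and with at least 5 CPM in a group mean. Another set, chosen for abundance, is not named, to keep the number of IDs small. Members, lists and tests were chosen with earlier results of these data known. None of the 28 pairs of libraries within a group matched within sampling noise (the chi-square over its degrees of freedom was 36 to 150.7), and each counts as 1 fish. The alternatives were other scalings, filters, tests, models and left-out fish; the earlier quasi-likelihood method, the no-overlap counts under other scalings, the tests of fish-level differences and other list sizes were added after seeing the data. The edgeR p-values set a change against the spread between fish within groups, counting error included. The part of depth in the changes was examined only by the alternatives named.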

Additional observations from a re-analysis of the deposited data

Results flagged for a closer look

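In moved marine fish, ENSGACG00000011137 was at 53.5 CPM in fish 2, far above the 31.6 to 35.7 CPM of the other 4. In moved freshwater fish, ENSGACG00000004398 was at 17.7 CPM in fish 4, below the 21.0 to 21.3 CPM of the other 3. Kept freshwater fish 1 had 24.7% of its counts in the 50 most abundant genes, against 23.9 to 24.0% in the other 3, and a distance from its group of 0.341 log2 units, against 0.444 to 0.464. These 4 values were far from their group among 52 groups of values examined, and chance flags about 1 in 20.

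The moves differed between the populations (freshwater minus marine) for ENSGACG00000000730, by 5.22 log2 units. They differed by 8347660 total counts, by -3.64 percentage points in the share of the 50 most abundant genes and by -0.191 log2 units in the distance from the group. The causes were not tested.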

How the results depend on the processing

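The 2 genes of the mean contrast were 2 with DESeq2 size factors, upper-quartile scaling, a filter of 5 CPM in 4 fish, or counts divided by their shared divisor. The number was 1 without a low-count filter, with robust edgeR, with library size as a covariate, at equal depth and with the earlier edgeR quasi-likelihood method (added after seeing the data), and 0 with the additive model. It was 8 with limma voom, 241 with DESeq2 and 26 without moved marine fish 1 and 2; without single fish it was 1 to 24, and the 2 calls without kept freshwater fish 5 were 1 higher and 1 lower. Unadjusted p-values below 0.05 numbered 2031 with library size as a covariate. The difference between the moves gave 821 genes with DESeq2, 110 with library size as a covariate, 237 without moved marine fish 1 and 2, and 202 to 561 without single fish. The test of the same change in both populations gave 0 genes in all 30 alternatives run. With the fish number as a replicate block the mean contrast gave 1 gene and the difference 198. The block also ends the call of ENSGACG00000017542 (edgeR adjusted p = 0.204). Same-numbered moved and kept fish correlated at 0.021, -0.215 and 0.157 in freshwater fish and at -0.19, 0.194, 0.192 and 0.227 in marine fish. Not every pair is above 0.1, so the main tests did not pair the fish, but these correlations do not settle whether the numbers pair them. The block gave each number the same effect in both populations, so it is not a pairing within populations. Over all groups 5 of 21 pairs were above 0.1, and 6 of 14 fish correlated best with their own number. No call reversed in the alternatives run. The difference between the moves in distance had a permutation adjusted p of 0.0766 over genes of at least 50 CPM. With 100 and 500 genes in place of 200, the list from freshwater fish had a median of -0.82 and -0.25 in marine fish, and the list from marine fish -0.29 and -0.09 in freshwater fish. Moved marine libraries of 6932688 to 16108405 counts limit genes of low abundance most. The causes of these shifts were not tested.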
